A study of Mus musculus with 16 samples.

Results

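The comparison set the right ventricular free wall against the left ventricular free wall in sham-operated mice, and so describes how the 2 pumping chambers of the adult heart differ when neither has been overloaded. It rests on 8 of the 16 libraries of the series, 4 from the right and 4 from the left ventricle, chosen by their labels. All animals were male adult FVB mice, an inbred strain, aged 10 to 13 weeks. The sham groups carry the label sham and underwent the control operation. The other 8 libraries, 4 right and 4 left ventricles labelled PS, were taken as those of mice with pulmonary artery banding, in which the outflow vessel of the right ventricle is constricted, because banding is the one procedure besides sham that the protocols name. Libraries were made from poly(A) RNA of whole free wall, so muscle, vessel, connective tissue and blood cells were measured together. The labels name no genetic modification and do not say whether a right and a left library came from the same heart, and p-values therefore measure the spread between these samples, part of which may be technical.

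The right ventricle arises largely from the second heart field, a pool of progenitors that also forms the outflow tract, whereas the left ventricle arises largely from the first heart field, in which Tbx5 and Hand1 act. After birth the left ventricle works against systemic pressure and the right ventricle against the lower pressure of the lungs. Adult chambers are known to differ in stretch-responsive peptides, in repolarizing potassium currents and in wall thickness, while both rely on mitochondrial oxidation of fatty acids for most of their ATP.

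Values were FPKM, fragments scaled to the length of the transcript and to the mapped total of the library. The number of fragments behind each library is not given in the sources used here and could not be recovered with certainty from the values: between 35% and 42.9% of low values in the 8 libraries lay within 0.15 of a whole number of fragments, where an even spread would put 30% there. Rough estimates, used below for simulated data only, ran from 335000 to 1450000 fragments in the right and 1630000 to 4490000 in the left libraries. The right libraries listed 11055 to 13205 genes above 0 and the left libraries 13646 to 14462, ranges that do not overlap, so how many genes a library detected and its chamber cannot be told apart. Library numbers are those of the labels, and whether a shared number pairs the chambers is not known.

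Markers were those of ventricular muscle. The summed level of 7 ventricular cardiomyocyte markers was 29860 to 33430 FPKM in the right and 20040 to 31180 FPKM in the left libraries. Summed markers of fibroblasts (233 to 279 against 210 to 324 FPKM), endothelium (1197 to 1737 against 1127 to 1340 FPKM) and macrophages (88.4 to 149.7 against 83.8 to 126 FPKM) overlapped between the chambers, and none of the 22 tested members of these 3 lists passed the test. In bulk tissue, fewer cells of a type and less RNA per cell cannot be told apart. No marker known to be exclusive to 1 ventricle served as a check of the chamber labels, because Hand1 was listed at 0 in all 8 libraries.

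Of 12100 tested genes, 308 were higher (2.55%) and 161 lower (1.33%) in the right than in the left ventricle, 3.88% in all. A gene counted as called, here and below, when it passed an adjusted p of 0.05 in the same direction on the deposited scale and again after each library had been divided by its median-ratio scale factor. The difference was at least 2-fold on the log2(FPKM + 1) scale for 104 of the higher and 90 of the lower genes. In 424 of the 469 called genes the 4 right values did not overlap the 4 left values, as against 1385 of all 12100 genes (11.4%), a separation that the call itself favours. The median difference of all tested genes was -0.01 on the deposited and -0.06 on the rescaled log2 scale. The split between the directions turned on the scale: 357 higher and 161 lower genes passed as deposited alone, 426 and 617 rescaled alone, 350 and 513 after quantile normalization, and 38 and 2970 under TPM scaling, which moved the median of all genes to -0.46. TPM scaling divided each library by its summed FPKM, 950965 to 1321427 in the right and 677555 to 863625 in the left libraries. A single entry, Mir6236, held 39.7% to 53.6% of that sum in the right and 33.9% to 48.0% in the left libraries.

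These counts depended on how the spread was estimated. The test pooled it over all 16 libraries, and right sham libraries were the most variable, with fitted library weights of 0.27 to 0.74 against 0.92 to 3.34 in the left sham libraries. On simulated data with library depths set to rough estimates the pooled fit called unchanged genes more often than its threshold allows, and less often with library weights, so the adjusted p-values given here may be too small. With those weights 224 of the 469 genes kept their call, and in a fit to the 8 sham libraries alone 39 did. Without left library 3 the counts fell to 59 higher and 21 lower, without left library 1 to 77 and 23, without left library 2 to 168 and 125, without left library 4 to 272 and 80, and without right library 1 to 178 and 123. At an unadjusted p of 0.05 on both scales, 2394 genes passed.

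**Figure D1:**
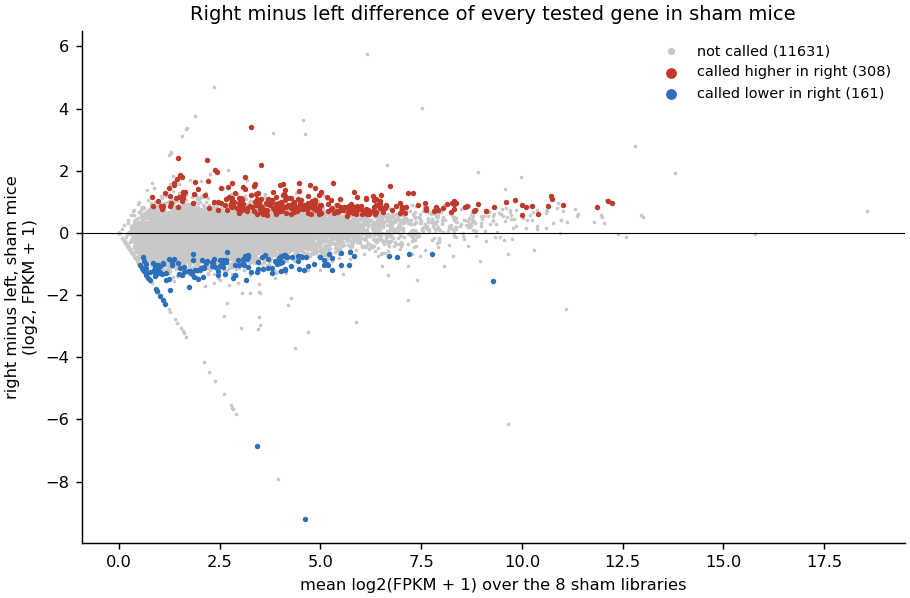
Right minus left difference in sham mice (log2 of FPKM + 1) of each tested gene against its mean level over the 8 sham libraries. Red points are the 308 genes called higher and blue points the 161 called lower in the right ventricle, and called genes lie at every level of expression.

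A set of 17 genes, 12 higher and 5 lower, were called with library weights, in the fit to sham libraries alone, in all 8 fits that left out 1 library and once length and GC content were corrected for, a selection made after the values were seen. Aldh1a2, the enzyme that makes retinoic acid and is known from the epicardium, stood at 3.68, 5.28, 4.11 and 3 FPKM in right libraries 1 to 4 and 0.459, 0.504, 0.703 and 0.329 FPKM in left libraries 1 to 4. Every right library lay far above every left library, a log2 difference of 1.73 (SE 0.22, adjusted p = 0.00268). Cav3, the caveolin of muscle that shapes the surface membrane and the T-tubules, stood at 85.6, 115, 87.3 and 119 FPKM in right libraries 1 to 4 and 49.3, 40.6, 45.2 and 52.7 FPKM in left libraries 1 to 4. Each right ventricle thus exceeded each left ventricle, with a right mean 2.16 times the left mean.

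Etfb, Bcat2 and Fis1, all mitochondrial, belonged to this set. Etfb, which passes electrons from fatty acid oxidation to the respiratory chain, stood at 702, 598, 665 and 665 FPKM in the 4 right and 322, 300.4, 321 and 459 FPKM in the 4 left libraries. The right libraries were alike and the highest left library, number 4, remained below them, with a log2 difference of 0.92 (SE 0.17, adjusted p = 0.0127). Bcat2, the mitochondrial enzyme that starts the breakdown of branched-chain amino acids, stood at 116, 128, 140.2 and 102 FPKM in the right and 49.8, 67.3, 54.8 and 54.5 FPKM in the left ventricle, and Fis1, an adaptor of mitochondrial fission, at 107, 140.2, 115 and 143 FPKM in the 4 right and 58.6, 53.5, 56.7 and 80.2 FPKM in the 4 left libraries. Both were separated without overlap and their right means were 2.15 and 2.03 times the left means.

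The other higher genes of the set were Hspb2, Csrp2, Gnb2, D8Ertd738e, Smim5, Ptprcap and Gm16740. Hspb2, a small heat shock protein of muscle, stood at 172, 242, 173 and 136 FPKM in the right and 49, 51.4, 66.2 and 85.5 FPKM in the left ventricle. Csrp2, a LIM protein known from smooth muscle and developing heart, stood at 48, 37.2, 40.9 and 29.5 FPKM in the 4 right and 14.7, 15.6, 15.6 and 19.4 FPKM in the 4 left libraries. In both genes the lowest right value exceeded the highest left value, and the log2 differences were 1.51 and 1.19. Gnb2, a G protein beta subunit, differed by 0.89, D8Ertd738e by 1.18 and Smim5 by 1.36 on the log2 scale. Ptprcap, a lymphocyte membrane protein, and Gm16740, a gene known only by its model number, were low, with 3.57, 4.69, 4.94 and 4.88 FPKM in the right and 0.757, 0.883, 0 and 0.808 FPKM in the left ventricle for the former and 4.85, 5.9, 5.58 and 5.32 FPKM in the 4 right and 0, 1.1, 0 and 0 FPKM in the 4 left libraries for the latter, and left values at or near 0.

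On the lower side, Rragd encodes a Rag GTPase that relays amino acid supply to mTORC1, and it stood at 5.76, 8.17, 5.41 and 6.16 FPKM in the right and 16.8, 16.1, 13.3 and 15.8 FPKM in the left ventricle. Wnk1, a kinase that regulates ion cotransporters, stood at 21.4, 27.8, 22.9 and 26.5 FPKM in the 4 right and 52.7, 43.3, 50 and 54.9 FPKM in the 4 left libraries. The left means were 2.43 and 2.04 times the right means, and no right library reached the lowest left library in either gene. The remaining 3 genes were listed at 0 in every right library. In the left libraries Ifitm1, an interferon-inducible membrane protein, was listed at 4.99, 2.77, 5.41 and 3.08 FPKM, Cyp2b10, a cytochrome P450, at 3.02, 3.3, 1.68 and 4.82 FPKM, and Snora17, a small nucleolar RNA, at 95.5, 133, 267 and 52 FPKM. Of the 161 lower genes 14 were listed at 0 in all 4 right libraries, as against 118 of all tested genes, while none of the 308 higher genes was listed at 0 in all 4 left libraries. Right libraries listed fewer genes above 0 in all, and the part of that in these values was not tested.

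The 12 largest called differences in favour of the right ventricle, among genes reaching a mean of 5 FPKM in 1 chamber without overlap, fell into endocrine granule genes, immune genes, growth genes and genes of basic cell function. Iapp, Chga and Chgb encode amylin and the chromogranins of hormone granules. Iapp stood at 38.2, 47.4, 31.4 and 15.2 FPKM in the right and 9.27, 2.21, 0.6 and 0.48 FPKM in the left ventricle. Chga stood at 23.2, 13.1, 6.96 and 3.75 FPKM in the 4 right and 3.33, 2.55, 1.22 and 0.612 FPKM in the 4 left libraries, and Chgb at 13.1, 7, 7.21 and 3.87 FPKM in the right and 3.56, 2.43, 0.79 and 0.618 FPKM in the left ventricle. All 3 varied several-fold within each chamber, and their log2 differences of 3.41, 1.97 and 1.66 came with the behaviour of other islet markers given further on.

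Of the immune genes, Ccl6, a chemokine of myeloid cells, stood at 3.38, 11.9, 8.59 and 21.2 FPKM in the 4 right and 0.419, 3.24, 1.01 and 2.69 FPKM in the 4 left libraries. Cfp, properdin of the alternative complement pathway, stood at 4.48, 18.9, 8.96 and 19.4 FPKM in the right and 3.44, 2.78, 2.56 and 3.18 FPKM in the left ventricle. Right library 1 was the lowest right library for both and came close to the highest left library. The growth genes were H19 and Igfbp6. H19, a maternally expressed long non-coding RNA that is abundant in the fetus, stood at 10.1, 23, 14.9 and 15.8 FPKM in the 4 right and 2.78, 2.41, 4.03 and 6.37 FPKM in the 4 left libraries, and Igfbp6, a binding protein that favours IGF2, at 15.1, 18.4, 29.7 and 9.87 FPKM in the right and 5.98, 2.44, 4.71 and 8.54 FPKM in the left ventricle. H19 differed by 1.80 (SE 0.32, adjusted p = 0.0125) and Igfbp6 by 1.58 (SE 0.33, adjusted p = 0.019), with all right above all left libraries.

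The remaining members were Rps10, a ribosomal protein with near-identical copies in the genome whose reads may be split, Rnaseh2c, a subunit of the enzyme that removes ribonucleotides from DNA, Vkorc1, the vitamin K reductase, Snrnp25, a part of the minor spliceosome, and Hspb2. Rps10 stood at 41.8, 86.9, 104 and 57.6 FPKM in the 4 right and 18.9, 22.9, 25.5 and 19.6 FPKM in the 4 left libraries and Vkorc1 at 38.4, 72.1, 34.4 and 41.5 FPKM in the right and 7.21, 17.1, 19.6 and 18.3 FPKM in the left ventricle. In both the lowest right library was well above the highest left library, and their log2 differences were 1.62 and 1.55. Rnaseh2c differed by 1.58 and Snrnp25 by 1.49. With library weights 11 of the 12 genes kept their call, Vkorc1 being the exception (adjusted p = 0.104), and in the fit to sham libraries alone 1 did, Hspb2. After correction for length and GC content Cfp and Igfbp6 lost the call, at up to 0.0615. Without left library 3, Ccl6, Chga, Chgb, Cfp, Igfbp6 and Snrnp25 lost the call, and without left library 1, Ccl6, Cfp and Vkorc1 did, with adjusted p of at most 0.0736. No other single library ended a call of this group.

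**Figure D2:**
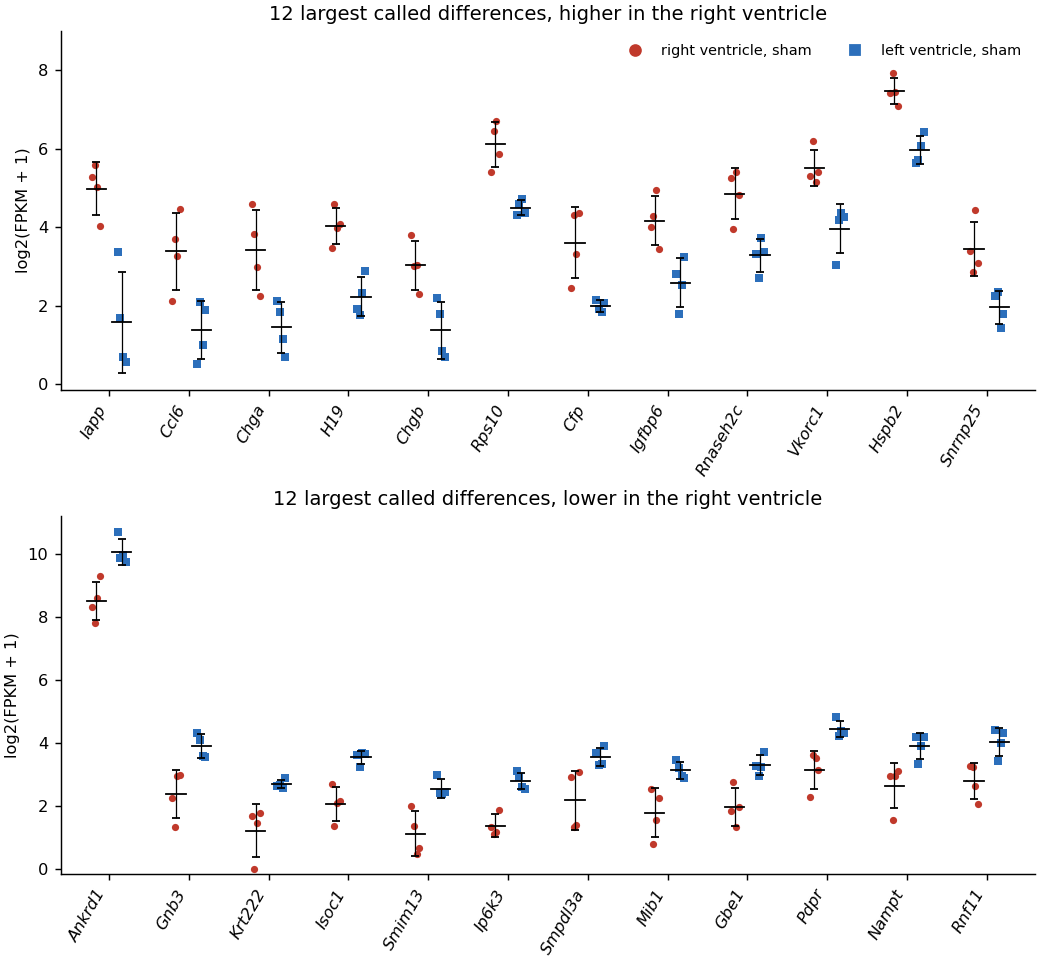
Level, as log2(FPKM + 1), of the 12 genes with the largest called difference in each direction, by library. Red circles are the 4 right and blue squares the 4 left sham libraries, black lines the means with SD, and in each gene the 2 sets of points do not overlap.

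The most abundant of the 12 largest genes lower in the right ventricle was Ankrd1, a stretch-responsive cofactor of the sarcomere and nucleus also called CARP. It stood at 321, 224, 391 and 622 FPKM in the 4 right and 1638, 924, 991 and 859.9 FPKM in the 4 left libraries. The highest right library, number 4, lay below the lowest left library, and left library 1 stood above the rest of its group, with a left mean 2.83 times the right mean, a log2 difference of -1.55 (SE 0.33, adjusted p = 0.0217 as deposited and 0.00692 rescaled).

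Several of these genes serve nutrient and energy handling. Gbe1, the glycogen branching enzyme, stood at 2.58, 5.77, 1.52 and 2.93 FPKM in the right and 8.61, 6.83, 8.52 and 12.3 FPKM in the left ventricle. Nampt, which makes the NAD precursor nicotinamide mononucleotide, stood at 6.75, 1.99, 6.74 and 7.63 FPKM in the 4 right and 17.4, 9.06, 14.1 and 17.3 FPKM in the 4 left libraries, and Pdpr, the regulatory subunit of pyruvate dehydrogenase phosphatase, at 3.89, 11.2, 10.7 and 7.97 FPKM in the right and 27.2, 17.9, 20.1 and 19 FPKM in the left ventricle. Each was lower in every right than in every left library, and the left means were 2.83, 2.51 and 2.5 times the right means. Ip6k3, a muscle-enriched inositol hexakisphosphate kinase, stood at 1.57, 1.18, 1.27 and 2.73 FPKM in the 4 right and 7.61, 6.59, 5.13 and 4.86 FPKM in the 4 left libraries. It differed by -1.41 (SE 0.24, adjusted p = 0.0121), with the highest right value well below the lowest left value.

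The others were Gnb3, a G protein beta subunit, at 3.83, 1.54, 6.75 and 6.97 FPKM in the right and 19, 16.3, 11.1 and 10.8 FPKM in the left ventricle, and Isoc1, an isochorismatase domain protein, at 5.47, 1.61, 3.28 and 3.48 FPKM in the 4 right and 11.2, 8.47, 11.8 and 11.6 FPKM in the 4 left libraries. In these 2 genes the chambers were again fully separated, with log2 differences of -1.51 and -1.46. Krt222 differed by -1.48, Smim13 by -1.42, Smpdl3a by -1.36 and the ubiquitin ligases Mib1 and Rnf11 by -1.34 and -1.24. All 5 were below 10 FPKM in every right library. With library weights 11 of the 12 genes kept their call, Smpdl3a being the exception (adjusted p = 0.0542), and in the fit to sham libraries alone none did, at adjusted p of up to 0.139. Without left library 1 only Isoc1 and Ip6k3 kept the call, and without left library 3 only Gnb3, Isoc1 and Ip6k3 did, with adjusted p of at most 0.0973 for those lost. Smpdl3a also lost it without right library 2, 3 or left library 2 or 4, Mib1 without right library 3 or left library 2, Rnf11 without right library 3 or 4 or left library 4, and Krt222 and Nampt without left library 4, at up to 0.083.

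Upstream sequence is shown for called genes whose windows hold a match. They were picked by hand and do not represent all called genes. The windows are the 250 bases before the RefSeq start on the gene's strand, mouse build GRCm38.p6, written 5′ to 3′. Capitals mark the MCAT motif CATTCCT on either strand, the element bound by TEAD factors such as Tead1, in Ankrd1 (chr19:36119845-36120094), Acta2 (chr19:34255374-34255623) and Etfb (chr7:43443822-43444071), and the NRF1 motif GCGCANGCGC in Ndufa11 (chr17:56717512-56717761) and Atp5k (chr5:108434400-108434649). Only the motif named for a gene is in capitals. The Etfb window also holds an NRF1 match near its end, left in lower case.
Ankrd1, minus strand: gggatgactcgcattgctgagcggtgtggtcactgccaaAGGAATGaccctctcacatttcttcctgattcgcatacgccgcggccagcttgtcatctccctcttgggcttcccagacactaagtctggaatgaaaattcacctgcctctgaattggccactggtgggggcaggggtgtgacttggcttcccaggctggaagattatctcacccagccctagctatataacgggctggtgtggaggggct
Acta2, minus strand: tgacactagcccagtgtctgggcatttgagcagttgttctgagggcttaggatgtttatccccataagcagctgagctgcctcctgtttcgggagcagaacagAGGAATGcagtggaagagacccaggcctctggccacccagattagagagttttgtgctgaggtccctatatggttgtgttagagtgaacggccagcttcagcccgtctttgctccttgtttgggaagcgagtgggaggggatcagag
Etfb, plus strand: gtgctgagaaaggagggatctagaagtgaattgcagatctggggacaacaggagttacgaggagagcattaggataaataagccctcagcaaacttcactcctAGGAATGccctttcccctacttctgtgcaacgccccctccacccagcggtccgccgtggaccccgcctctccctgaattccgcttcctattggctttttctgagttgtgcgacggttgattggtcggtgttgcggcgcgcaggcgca
Ndufa11, plus strand: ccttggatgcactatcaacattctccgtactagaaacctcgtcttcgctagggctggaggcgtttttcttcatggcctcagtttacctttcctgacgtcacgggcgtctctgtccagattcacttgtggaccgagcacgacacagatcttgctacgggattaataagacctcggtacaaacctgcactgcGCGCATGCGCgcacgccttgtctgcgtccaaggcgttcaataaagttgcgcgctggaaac
Atp5k, minus strand: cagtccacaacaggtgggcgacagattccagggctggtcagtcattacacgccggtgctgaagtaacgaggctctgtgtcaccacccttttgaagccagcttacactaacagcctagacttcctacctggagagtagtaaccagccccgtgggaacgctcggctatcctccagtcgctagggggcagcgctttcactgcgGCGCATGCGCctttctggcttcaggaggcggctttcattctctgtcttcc
The MCAT motif is therefore present both before a gene lower in the right ventricle, Ankrd1, and before genes higher in it, Acta2 and Etfb. RefSeq windows were matched for 239 of the 308 higher and 124 of the 161 lower genes. MCAT was found in 6.9% of the 319 windows of the higher and 1.23% of the 163 windows of the lower genes (22 and 2 windows), as against 4.51% of all 32851 windows and 3.9% of those of tested genes. NRF1 was found in 3.74% of all windows and 7.82% of those of tested genes, in 5.96% of those of the higher and 6.75% of those of the lower genes, and in 4 of the 16 windows of respiratory chain and ATP synthase genes higher in the right ventricle, those of Ndufa11, Atp5k, Ndufa8 and Ndufs6, as against 14 of the 69 windows (20.3%) of all genes of those lists. ERRE (TNAAGGTCA) and CArG (a run of A or T between CC and GG) were also searched for. ERRE was found in 0.313% of the windows of the higher, 0.613% of the lower and 0.639% of tested genes. It was in 0 of the 16 windows of the respiratory chain and ATP synthase genes higher in the right ventricle. CArG was found in 2.51%, 0.613% and 1.2% of the windows of higher, lower and tested genes. The marked motifs do not overlap each other here, and a match is a run of letters only.

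Genes that pattern the chambers in the embryo were not called in these adults with the values as deposited and rescaled. Of 7 tested left ventricular and first heart field genes and 12 tested right ventricular, outflow and second heart field genes none was called, with median log2 differences of -0.39 and -0.11 against -0.01 for all tested genes. After correction for length and GC content Nppa and Nppb of the first list, described further on, were called lower (adjusted p = 0.0425 and 0.0486). Tbx5, the first heart field T-box factor, stood at 5.4, 9.62, 5.28 and 8.84 FPKM in the right and 6.06, 8.09, 6.09 and 7.26 FPKM in the left ventricle. Hand2, the bHLH factor required for right ventricular growth, stood at 40.6, 28.2, 55.5 and 54.1 FPKM in the 4 right and 31.4, 31.6, 25.2 and 44 FPKM in the 4 left libraries. Right and left values of both interleaved, and the log2 differences were 0.04 (SE 0.23, adjusted p = 0.944) and 0.40 (SE 0.21, adjusted p = 0.288); that of Tbx5 changed sign on rescaling and that of Hand2 under TPM scaling. Irx4, the ventricular Iroquois factor, differed by 0.19 (adjusted p = 0.615) and Tbx20 by -0.66 (adjusted p = 0.258). Bmp10, a trabecular growth factor, was listed at 0, 1.62, 0 and 0.54 FPKM in the right and 0, 0.297, 0 and 0 FPKM in the left ventricle, too low to be tested.

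Among 27 tested core cardiac transcription factors and cofactors 2 were lower in the right ventricle, against 1.33% of all tested genes, and none higher. They were Ankrd1 and Tead1, a TEAD factor that acts with YAP at MCAT elements. Tead1 stood at 17.1, 18.7, 14.8 and 22.4 FPKM in the 4 right and 35.9, 30.1, 32.9 and 28.4 FPKM in the 4 left libraries. The left mean was 1.74 times the right mean and no libraries overlapped (log2 difference -0.78, SE 0.21, adjusted p = 0.044 as deposited and 0.00757 rescaled). The call of Tead1 held without right library 4 and was lost without any other single library, at adjusted p of up to 0.125. Nkx2-5, a homeobox factor of all cardiomyocytes, stood at 70, 37.5, 58.7 and 57.7 FPKM in the right and 24.5, 39.1, 34.4 and 38.7 FPKM in the left ventricle, with a log2 difference of 0.68 that did not pass (adjusted p = 0.123).

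Among genes of repolarization, 2 of 21 tested potassium channel genes were higher in the right ventricle and none lower, where 2.55% of all tested genes were higher. Kcnq1, the pore of the slow delayed rectifier, stood at 17.8, 28.8, 14.4 and 18.8 FPKM in the 4 right and 8.18, 7.34, 10.9 and 13.8 FPKM in the 4 left libraries, and Kcnh2, the pore of the rapid delayed rectifier, at 40.2, 36.6, 38.3 and 34.5 FPKM in the right and 20.8, 25.6, 21 and 21.6 FPKM in the left ventricle. Every right library exceeded every left library in both, and the right means were 1.98 and 1.68 times the left means (adjusted p = 0.0427 and 0.0256). Kcnip2, the accessory subunit of the transient outward current, stood at 119.6, 73.3, 116 and 114 FPKM in the 4 right and 123, 137, 113 and 100.1 FPKM in the 4 left libraries. Apart from a low right library 2 its values overlapped, with a log2 difference of -0.18 (adjusted p = 0.62). Kcnd2, a pore subunit of that current, differed by 0.26 (adjusted p = 0.684) and Kcnj2, of the inward rectifier, by -0.57 (adjusted p = 0.261). Kcne1 was at most 2.18 FPKM and not tested. Abcc9, the sulfonylurea receptor of ATP-sensitive channels, was lower in every right than in every left library, at 35.5, 39.5, 29.9 and 30.9 FPKM in the right and 56.7, 53.8, 52.6 and 53.5 FPKM in the left ventricle, by -0.67 on the log2 scale, and passed on the rescaled scale alone (adjusted p = 0.0188, against 0.0646 as deposited).

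Of 18 tested sodium channel, pacemaker channel and gap junction genes Fxyd1 alone was called, against 3.88% of all tested genes. Fxyd1, phospholemman, which regulates the sodium pump, stood at 1858, 1395, 1615 and 1836 FPKM in the 4 right and 1161, 1025, 1185 and 981 FPKM in the 4 left libraries. The lowest right library exceeded the highest left library, a log2 difference of 0.62 (SE 0.15, adjusted p = 0.0339). Gja1, connexin 43 of the working muscle, stood at 103, 159.5, 123 and 108 FPKM in the right and 228, 210.3, 172 and 173 FPKM in the left ventricle. All right values were below all left values, but the log2 difference of -0.67 passed on the rescaled scale alone (adjusted p = 0.0355, against 0.0821 as deposited). Gja5, connexin 40, differed by 0.32 (adjusted p = 0.484).

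Of 21 tested calcium handling genes 1 was higher and 1 lower in the right ventricle, and of 23 tested genes of the intercalated disc and cytoskeleton 1 was lower. The shares of all tested genes were 2.55% higher and 1.33% lower. Itpr2, the inositol trisphosphate receptor of cardiomyocytes, stood at 15.3, 12.8, 11.5 and 20.9 FPKM in the 4 right and 7.75, 7.47, 7.76 and 4.26 FPKM in the 4 left libraries. Camk2d, the cardiac isoform of calmodulin kinase II, stood at 11.9, 22.5, 9.63 and 13.8 FPKM in the right and 40.5, 29.7, 28.7 and 31.7 FPKM in the left ventricle. Cdh2, N-cadherin of the intercalated disc, stood at 21.7, 19.7, 12.9 and 15.3 FPKM in the 4 right and 43.7, 31.9, 32.8 and 38.4 FPKM in the 4 left libraries. The chambers did not overlap in any of these 3 genes, and the log2 differences were 1.04 (adjusted p = 0.0316), -1.18 (0.0222) and -1.05 (0.0211). Ryr2, the release channel of the sarcoplasmic reticulum, was lower in all right libraries, by -0.63, and passed only after rescaling (adjusted p = 0.0737 and 0.0197). With library weights Itpr2, Camk2d and Cdh2 kept their calls and Kcnq1, Kcnh2 and Fxyd1 did not, at adjusted p of up to 0.166, and the same 3 were lost after correction for length and GC content, at up to 0.176. None of the 6 was called in the fit to sham libraries alone, without left library 1 or without left library 3, at adjusted p of up to 0.138. With 1 library left out, Kcnq1 kept its call only without right library 3 or left library 4, Kcnh2 only without right library 4 or left library 2, Fxyd1 only without right library 2, and Itpr2 only without right library 2 or 3 or left library 2.

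No difference between the chambers was detectable in either myosin heavy chain. Myh6, the fast adult heavy chain, stood at 1826, 2037, 1874 and 2131 FPKM in the right and 1891, 1826, 1759 and 2414 FPKM in the left ventricle, and Myh7, the slow one, at 192, 182, 202 and 257 FPKM in the 4 right and 229, 167, 174 and 197 FPKM in the 4 left libraries. Right and left values interleaved, and the log2 differences were 0.00 (SE 0.20) and 0.12 (SE 0.28), with adjusted p of 0.995 and 0.855; the signs of these near-zero values changed between scalings. Myl2, the ventricular regulatory light chain, stood at 11040, 9170, 8969 and 9794 FPKM in the right and 5857, 5275, 6002 and 9457 FPKM in the left ventricle. Left library 4 came within the range of the right libraries and the other 3 left libraries lay below it, a log2 difference of 0.59 that did not pass (adjusted p = 0.134).

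Of 31 tested sarcomere and Z-disc genes 2 were higher and none lower in the right ventricle, with a list median of 0.16 that was -0.38 under TPM scaling and -0.26 after quantile normalization. The share of all tested genes called higher was 2.55%. Tnni3, cardiac troponin I, stood at 4914, 4598, 4943 and 5414 FPKM in the 4 right and 2481, 2210, 2722 and 3905 FPKM in the 4 left libraries. Tcap, telethonin, which caps titin at the Z-disc, stood at 2387, 2477, 3341 and 1964 FPKM in the right and 1291, 1145, 1013 and 1263 FPKM in the left ventricle. Both were higher in every right library, with right means 1.76 and 2.16 times the left means (adjusted p = 0.0304 and 0.0211). Tnni3 is also 1 of the 10 tested ventricular identity genes, of which no other was called, and those 10 had a median of 0.26.

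The natriuretic peptides, released by stretched muscle, had lower means in the right ventricle but did not pass on both scales. Nppa, atrial natriuretic peptide, stood at 49.1, 91.8, 82.3 and 40 FPKM in the 4 right and 224, 101, 157 and 85.9 FPKM in the 4 left libraries. Nppb, B-type natriuretic peptide, stood at 64.4, 63.3, 96.1 and 234 FPKM in the right and 385, 354, 208 and 232 FPKM in the left ventricle. In each gene only 1 right library reached the left range, number 2 for Nppa and number 4 for Nppb, and the log2 differences of -1.08 (SE 0.33) and -1.53 (SE 0.43) came with adjusted p-values on either side of the threshold or above it (adjusted p = 0.0683 and 0.0529 for Nppa, 0.0512 and 0.0316 for Nppb, as deposited and rescaled). Acta1, skeletal actin of the fetal heart, stood at 57, 86.7, 37.5 and 497 FPKM in the 4 right and 180.3, 192, 161 and 343 FPKM in the 4 left libraries. Library 4 was the highest of both chambers, and the log2 difference was -1.08 (SE 0.56, adjusted p = 0.286).

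Acta2, smooth muscle actin, went the other way among the 17 tested fetal and load-responsive genes, of which Acta2 alone was called higher and Ankrd1 alone lower. Over all tested genes 2.55% were called higher and 1.33% lower. Acta2 stood at 75.6, 91.2, 98.7 and 92.3 FPKM in the right and 34.1, 33.5, 25 and 51.5 FPKM in the left ventricle. Each right library exceeded each left library, a right mean 2.48 times the left mean (log2 difference 1.33, SE 0.26, adjusted p = 0.016). Acta2 kept its call with library weights, in the fit to sham libraries alone and without each library except left library 3. Tnni3 and Tcap lost theirs with library weights, at up to 0.13, and after correction for length and GC content, at up to 0.0946. Without left library 3 all 4 called genes of these lists lost the call, and without left library 1 Acta2 alone kept it, with adjusted p of at most 0.092; without right library 1 or 4 Tnni3 was lost, without right library 2 or left library 4 Tcap, and without right library 3 or left library 2 both.

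Among genes of the respiratory chain and ATP synthase, 16 were called higher in the right ventricle. Of 37 tested complex I genes 7 were called higher and none lower, and of 40 tested genes of complexes II to IV and ATP synthase 9 were called higher and none lower, against 2.55% of all tested genes. The list medians were 0.67 and 0.64 as deposited and 0.61 and 0.58 rescaled, and 34 of the 37 and 37 of the 40 genes had a positive difference. The medians remained positive under TPM scaling, at 0.10 and 0.05, against -0.46 for all genes, and after quantile normalization, at 0.23 and 0.17.

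Ndufa11, an accessory subunit of complex I, stood at 155, 116, 112 and 145 FPKM in the 4 right and 67, 66.8, 69.7 and 85.5 FPKM in the 4 left libraries. Ndufb6, another accessory subunit, stood at 687, 357, 312 and 576 FPKM in the right and 192, 260.1, 244 and 251 FPKM in the left ventricle. The chambers did not overlap in either gene, and the log2 differences were 0.86 (SE 0.16, adjusted p = 0.0146) and 0.96 (SE 0.21, adjusted p = 0.0228). The other called complex I genes were Ndufa8, Ndufa13, Ndufb10, Ndufs6 and Ndufs8. In the later complexes the called genes were Uqcr11 of complex III, Cox4i1, Cox5b, Cox7a2 and Cox8b of cytochrome oxidase, and Atp5d, Atp5e, Atp5j2 and Atp5k of ATP synthase. Atp5e, the epsilon subunit, stood at 3588, 1794, 2698 and 2446 FPKM in the 4 right and 864, 1056, 1204 and 1399 FPKM in the 4 left libraries, and Atp5d, the delta subunit, at 1259, 811, 1106 and 1303 FPKM in the right and 481, 508, 526 and 716 FPKM in the left ventricle. Right means were 2.33 and 2.01 times the left means, again without overlap. Cox4i1, a nuclear-encoded subunit needed to assemble the oxidase, stood at 3548, 2479, 2459 and 2925 FPKM in the 4 right and 1320, 1234, 1433 and 2332 FPKM in the 4 left libraries, where left library 4 came close to the lowest right libraries without reaching them.

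With library weights Ndufa11, Ndufb6, Atp5d and Atp5e kept their calls and the other 12 did not, at adjusted p of up to 0.124. None of the 16 was called in the fit to sham libraries alone, at up to 0.139. Ndufa11 and Atp5e were called whichever library was left out. These 2 alone kept the call without left library 1 or left library 3, with adjusted p of up to 0.148 for the others, and between 5 and 14 of the 16 kept it without any of the other 6 libraries. After correction for length and GC content 7 of the 16 were called and the medians of the lists were 0.47 and 0.57. The median lengths of the lists were 1046 and 1116 nt, against 3339 nt for all tested genes, and short transcripts as a class were higher in the right libraries, as given below.

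Among fuel enzymes, of 21 tested fatty acid oxidation genes 2 were higher, Etfb and Acaa2, of 18 fatty acid uptake and storage genes 2, Plin5 and Ucp3, and of 15 TCA cycle genes 2, Idh2 and Suclg1, with none lower, where 2.55% of all tested genes were higher. Acaa2, the thiolase that ends each cycle of mitochondrial beta-oxidation, stood at 415, 354, 466 and 452 FPKM in the right and 244, 204, 233 and 307 FPKM in the left ventricle. Suclg1, a subunit of succinyl-CoA ligase, stood at 452, 326, 349.8 and 408 FPKM in the 4 right and 269, 215, 228 and 249 FPKM in the 4 left libraries. Ucp3, an uncoupling protein of muscle, stood at 32.8, 20.1, 20.8 and 27.3 FPKM in the right and 11.8, 13.2, 17 and 13.1 FPKM in the left ventricle. All 3 were higher in each right than in each left library, with log2 differences of 0.78, 0.67 and 0.81. The medians of the 3 lists were 0.17, 0.44 and 0.07, and turned to -0.41, -0.11 and -0.52 under TPM scaling.

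Of 31 tested genes of glucose use and glycogen 3 were higher and 1 lower, as against 2.55% and 1.33% of all tested genes. The higher ones were Pgam2, the muscle phosphoglycerate mutase, Fbp2, the muscle fructose bisphosphatase, and Phkg1, the muscle phosphorylase kinase subunit. Fbp2 stood at 33, 27.5, 31 and 14.2 FPKM in the 4 right and 11.2, 10.9, 8.35 and 12.1 FPKM in the 4 left libraries. It did not overlap, although right library 4 lay close to the left libraries, and the right mean was 2.48 times the left mean. Pdk1, a kinase that switches off pyruvate dehydrogenase, was the lower one, at 30.8, 27.3, 26.4 and 28.6 FPKM in the right and 45.2, 38.1, 43.8 and 57.1 FPKM in the left ventricle. No right library reached the left range, and the log2 difference was -0.67 (SE 0.18, adjusted p = 0.0469).

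The energy regulators included a pair of related nuclear receptors that differed in opposite directions. Esrra, the estrogen-related receptor alpha that drives mitochondrial genes, stood at 106, 83.7, 81 and 92.5 FPKM in the 4 right and 48.7, 51, 50 and 62.6 FPKM in the 4 left libraries. Esrrg, its gamma relative, stood at 3.48, 2.25, 1.48 and 2.66 FPKM in the right and 7.73, 4.91, 5.84 and 6.21 FPKM in the left ventricle. Right values lay above all left values for Esrra and below them for Esrrg, with log2 differences of 0.76 (SE 0.15, adjusted p = 0.0163) and -1.07 (SE 0.28, adjusted p = 0.0425). Sirt3, the mitochondrial deacetylase, was the other higher member of the 16 tested, and no gene of the 11 tested creatine and adenylate kinase genes was called. Over all tested genes 2.55% were higher and 1.33% lower. Of the 13 called genes of these lists Etfb, Suclg1 and Pgam2 kept the call with library weights, at adjusted p of up to 0.172 for the rest, and Etfb alone in the fit to sham libraries, without left library 1 or without left library 3, at up to 0.143. After correction for length and GC content Plin5, Idh2 and Pgam2 lost the call, at up to 0.253. With 1 library left out, Fbp2, Esrra and Sirt3 were lost only without left library 1 or 3. Acaa2, Plin5 and Pgam2 kept the call only without right library 2 or left library 4, Ucp3 only without right library 2 or 3, Suclg1 only without right library 2, Phkg1 only without right library 2 or left library 2, and Esrrg only without right library 1. Pdk1 and Idh2 were lost without any 1 of the 8, at up to 0.117 for Pdk1.

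Cytosolic ribosomal protein genes were mostly called in the same direction where they were called. Of 42 tested list members, 8 were higher, namely Rpl8, Rpl14, Rpl18, Rplp2, Rps7, Rps14, Rps15 and Rps19, and Rps12 was lower, as against 2.55% and 1.33% of all tested genes, with a list median of 0.47 that was -0.02 under TPM scaling. Rps10, given above, and Rpl41 are not on the list and were also called higher. Rps14 stood at 325, 188, 170.3 and 238 FPKM in the 4 right and 85.7, 73.3, 90.8 and 120.4 FPKM in the 4 left libraries. The chambers did not overlap, a right mean 2.49 times the left mean (log2 difference 1.28, SE 0.21, adjusted p = 0.0115). Rps12 was listed at 0 in all right libraries and at 3.05, 3.66, 0.967 and 0.782 FPKM in the left ones. Levels of single ribosomal genes are uncertain because near-identical copies share their reads, and Rpl24, Rpl28 and Rps28, which all cells use, were listed at 0 in all 8 libraries. With library weights Rplp2, Rpl18, Rps14 and Rps12 kept their calls and the other 5 did not, at adjusted p of up to 0.114. Without left library 1 or left library 3, Rps14 and Rps12 alone kept them, at up to 0.145 for the others, and none was called in the fit to sham libraries, at up to 0.131. Without right library 1, 3 or 4 or left library 2 between 5 and 7 of the 9 kept the call, and without right library 2 only Rpl14 was lost. After correction for length and GC content Rpl8, Rpl14 and Rps15 lost the call, at up to 0.118.

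The difference between the chambers varied with transcript length over all genes, falling with length from 800 nt on. The median rescaled log2 difference was 0.08 for transcripts under 800 nt, 0.25 for those of 800 to 1200 nt, 0.01 for 2000 to 3000 nt and -0.25 for 7000 nt or more. Of 571 genes of 800 to 1200 nt 54 were called higher and 5 lower, and of 1016 genes of 7000 nt or more 4 were higher and 30 lower. The 308 higher genes had a median length of 1899 nt and a GC content of 55.8%, the 161 lower genes 4488 nt and 46.0%, and all tested genes 3339 nt and 50.3%. In banded mice the same medians ran the other way, from -0.21 under 800 nt and -0.22 in the class of 800 to 1200 nt to 0.18 in that of 7000 nt or more. After correction for length and GC content 499 of 11554 genes were called (4.32%), 278 higher (2.41%) and 221 lower (1.91%), and 278 of the 469 genes kept their call, 154 of the higher and 124 of the lower. The source of the trend was not tested.

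**Figure D3:**
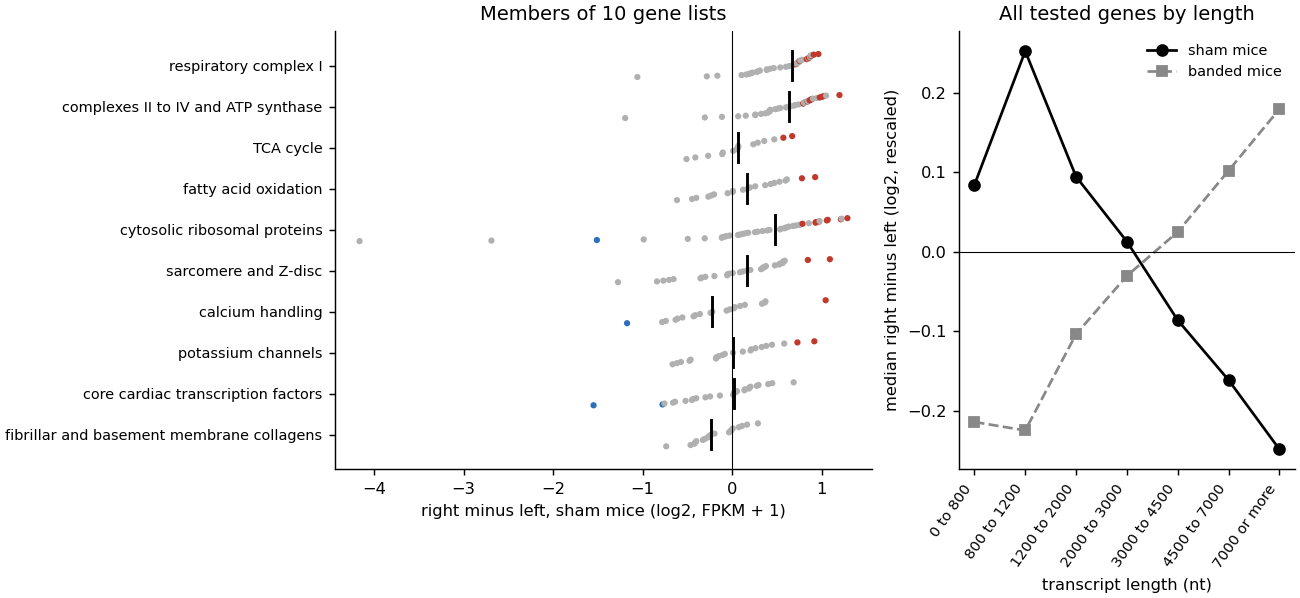
Left, right minus left difference in sham mice (log2 of FPKM + 1) of the tested members of 10 gene lists, 1 point a gene, red called higher, blue called lower, grey not called, black bars the list medians. Right, median rescaled difference of all tested genes by transcript length (nt) in sham mice (circles) and banded mice (squares); the sham medians go from 0.08 in the shortest class to 0.25 in the next and then fall to -0.25, and the banded medians go from -0.21 and -0.22 to 0.18.

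Among the matrix lists, none of 19 tested fibrillar and basement membrane collagens and none of 24 tested members of the list of matrix remodelling enzymes was called, and of 38 matrix glycoproteins and matricellular proteins 1 was higher and 2 were lower, where 2.55% of all tested genes were higher and 1.33% lower. Outside these lists the collagen Col20a1 and the proteases Adamts7 and Htra3 were called higher. Eln, elastin of large vessels and valves, stood at 22.4, 19.9, 27.6 and 26.3 FPKM in the right and 14.8, 10.7, 11.4 and 13.4 FPKM in the left ventricle, and Lamb1, a laminin chain of basement membranes, at 12.5, 10.5, 13.8 and 14.2 FPKM in the 4 right and 22.8, 19.6, 20.7 and 21.6 FPKM in the 4 left libraries. Right values were all above the left for Eln and all below for Lamb1, with log2 differences of 0.89 (adjusted p = 0.0319) and -0.69 (adjusted p = 0.0303). Smoc2, a matricellular calcium-binding protein, was the other lower gene. The collagen list had a median of -0.24, and -0.17 after correction for length and GC content.

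Each of the signalling lists held between 0 and 3 calls, where 3.88% of all tested genes were called. Wif1, a secreted Wnt inhibitor, was the 1 called gene of 16 tested Wnt genes and stood at 13.3, 9.63, 12.7 and 7.12 FPKM in the right and 5.46, 6.77, 3.27 and 5.43 FPKM in the left ventricle. Bmp6 was 1 of 2 genes called higher among 26 tested TGF-beta and BMP genes, with Tgfb1, and stood at 10.8, 14, 9.98 and 10.4 FPKM in the 4 right and 6.13, 3.6, 3.78 and 5.75 FPKM in the 4 left libraries. Neither overlapped, and the right means were 2.04 and 2.34 times the left means. Prkar1a, the regulatory subunit of protein kinase A, was the 1 called gene, lower, of 23 tested adrenergic, angiotensin and endothelin signalling genes, at 82.5, 105, 73.3 and 103 FPKM in the right and 162, 149, 149 and 166 FPKM in the left ventricle. Every right value was below every left value, a log2 difference of -0.79 (SE 0.19, adjusted p = 0.0323). In calcineurin and CaMKII signalling Nfatc2 and Hdac5 were higher and Camk2d lower of 18 tested, and none of 19 axon guidance genes was called.

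The IGF and growth factor axis had 3 genes higher of 20 tested, H19, Igfbp6 and Igf2, the fetal growth factor that neighbours H19 and is expressed from the paternal allele. The share of all tested genes called higher was 2.55%. Igf2 stood at 17.2, 13.1, 14.2 and 13.9 FPKM in the 4 right and 5.22, 7.63, 5.09 and 7.83 FPKM in the 4 left libraries. The lowest right value exceeded the highest left value, and the log2 difference was 1.08 (SE 0.23, adjusted p = 0.0211). With library weights Lamb1, Wif1, Bmp6, Prkar1a, Igf2, H19 and Igfbp6 kept their calls and Eln, Smoc2, Tgfb1, Nfatc2 and Hdac5 did not, at adjusted p of up to 0.126, and none of the 12 was called in the fit to sham libraries, at up to 0.157. After correction for length and GC content Eln, Tgfb1 and Igfbp6 lost the call, at up to 0.111. Without left library 3 only H19 kept its call, and without left library 1 only Bmp6, H19 and Igfbp6 did, at up to 0.132 for those lost. Without any of the other 6 libraries between 5 and 8 of the 12 were kept; H19 was the gene kept throughout.

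The lists of tissue state described here held single calls or none, where 3.88% of all tested genes were called. None of 26 tested immediate early genes and none of 18 clock genes was called, and 1 gene each was called in the heat shock (Hspb2, higher, of 18), antioxidant (Mgst1, higher, of 23) and cell cycle (Ccnd2, lower, of 12) lists. Mgst1, a microsomal glutathione transferase, stood at 30.8, 34.1, 47.7 and 44.8 FPKM in the right and 19.1, 17.2, 16.6 and 21 FPKM in the left ventricle. Ccnd2, cyclin D2, stood at 12.1, 16.5, 8.47 and 13.8 FPKM in the 4 right and 31.1, 26.1, 25.2 and 26.1 FPKM in the 4 left libraries. Both were fully separated, with log2 differences of 1.04 and -1.07. Mgst1 kept its call with library weights and in the fit to sham libraries and was lost without left library 3, and Ccnd2 was lost in the fit to sham libraries (adjusted p = 0.0541) and without left library 1 or 3 (at up to 0.0664).

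Markers of tissues that a free wall should not hold differed between libraries as well as between chambers. Of 7 tested pancreatic islet markers 3 were called higher in the right ventricle, Iapp, Gcg and Chga, and the summed level of the 10 markers was 649 to 2149 FPKM in the right and 87.2 to 2102 FPKM in the left libraries. The share of all tested genes called higher was 2.55%. Ins2, insulin, stood at 1418, 770.1, 1475 and 509 FPKM in the right and 1620, 292, 99 and 74.1 FPKM in the left ventricle, and Ins1, the other insulin gene, at 284, 140.2, 549.5 and 98 FPKM in the 4 right and 439, 63.3, 13.6 and 11 FPKM in the 4 left libraries. Left library 1 was as high as the right libraries and the other 3 left libraries were lower, so the chambers overlapped, with a log2 difference of 1.96 (SE 0.69, adjusted p = 0.111) for Ins2, while Ins1 was not called either (adjusted p = 0.136). Gcg, glucagon, stood at 25.4, 13.6, 78.5 and 11.1 FPKM in the right and 16.9, 5.08, 2.94 and 0.976 FPKM in the left ventricle. It overlapped too, and its call (adjusted p = 0.0421) was lost with library weights (0.0675) and without right library 1 or 3 or left library 2, 3 or 4 (up to 0.113).

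Acinar markers of the pancreas stayed at a sum of 0 to 4.87 FPKM in the right and 1.71 to 2.8 FPKM in the left libraries, with Prss2, Pnlip and Cel listed at 0 throughout. In the banded libraries Ins2 was 46.8 to 114 FPKM in the right and 18.4 to 47.0 FPKM in the left ventricle. The part of islet RNA in the difference between the chambers was not tested. Iapp and Chga are on the islet list themselves, Chgb, of the same granules, is not, and no other gene of the 12 largest is on it. Endocrine genes outside the list were not counted as a group, and Resp18, Vgf and Scg5 among them were also called higher.

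**Figure D4:**
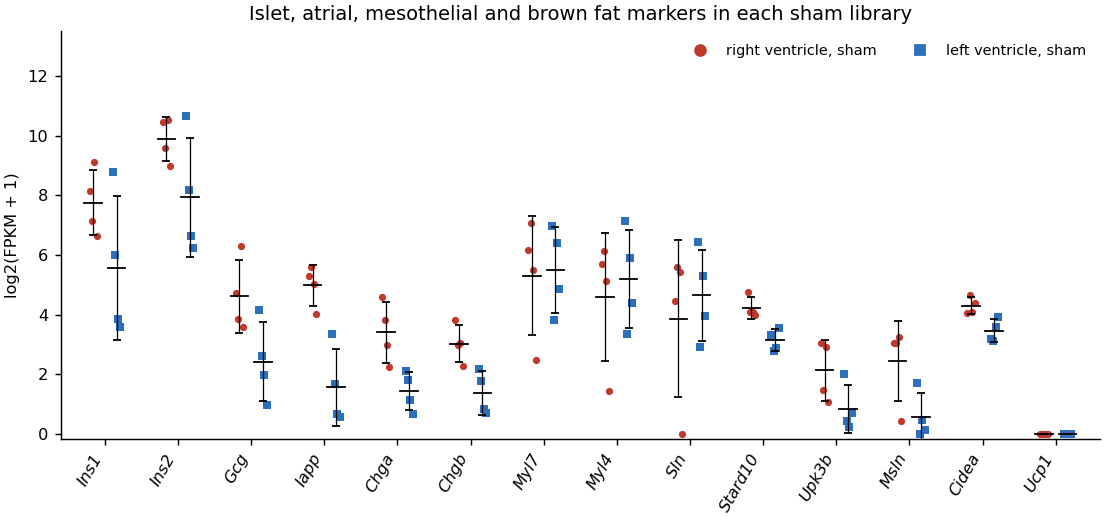
Level, as log2(FPKM + 1), of islet, atrial, mesothelial and brown fat markers in the 4 right (red circles) and 4 left (blue squares) sham libraries, with mean and SD. Ins1, Ins2 and Gcg are high in left library 1 as in the right libraries, Myl7, Myl4 and Sln vary widely within both chambers, and Ucp1 is listed at 0 in all 8.

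Of 8 tested atrial markers only Stard10 was called, against 3.88% of all tested genes. Myl7, the atrial regulatory light chain, stood at 70.3, 134, 43.9 and 4.58 FPKM in the 4 right and 124, 13.2, 83.5 and 27.8 FPKM in the 4 left libraries. Right library 4 and left library 2 were low and right library 2 and left library 1 high, and the log2 difference was -0.21 (SE 1.35, adjusted p = 0.951). The sum of 10 atrial markers was 33.8 to 281 FPKM in the right and 46.5 to 377 FPKM in the left libraries. Stard10, a lipid transfer protein on the same list, was called higher at 26.2, 15.9, 16 and 14.8 FPKM in the right and 8.98, 5.92, 6.41 and 10.9 FPKM in the left ventricle, without overlap, and lost the call without left library 3 (adjusted p = 0.0612). It also lost the call in the fit to sham libraries alone (adjusted p = 0.0724) and after correction for length and GC content.

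Of 3 tested mesothelial markers Msln was called higher, against 2.55% of all tested genes. Msln, mesothelin of the epicardial surface, stood at 7.25, 7.29, 8.58 and 0.371 FPKM in the 4 right and 2.28, 0, 0.386 and 0.103 FPKM in the 4 left libraries, and Upk3b, uroplakin 3b of the same layer, at 7.36, 1.8, 6.65 and 1.09 FPKM in the right and 3.06, 0.345, 0.189 and 0.635 FPKM in the left ventricle. Right library 4 lay within the left range for both and right library 2 also for Upk3b, and Msln was called (adjusted p = 0.0425) while Upk3b was not (0.0976). The call of Msln was lost with library weights (adjusted p = 0.0807) and without right library 1, 2 or 3 or left library 2, 3 or 4 (up to 0.105). Aldh1a2, named above, is known from the same layer and stood at 3 FPKM in right library 4 and at most 0.703 FPKM in the left libraries. The part of the amount of epicardium in these values was not tested.

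Among 8 tested smooth muscle and pericyte markers Acta2 alone was called higher and Rgs5, of pericytes, alone lower, where 2.55% of all tested genes were higher and 1.33% lower. Only 2 of the 8 had a positive difference, and the list median was -0.06. Rgs5 stood at 51.8, 44.7, 35.6 and 40.2 FPKM in the 4 right and 73.5, 54.1, 73.2 and 93.3 FPKM in the 4 left libraries. The chambers did not overlap for Rgs5, but the call was lost with library weights and without each library except left library 2. Cidea, a lipid droplet protein of brown fat, was higher (log2 difference 0.84, adjusted p = 0.0429) and kept its call without left library 4 alone, while Ucp1, which defines brown fat, was listed at 0 in all 8 libraries. Lung, thymus and liver markers were too low to be tested, at sums of at most 1.68, 4.62 and 1.27 FPKM.

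The banded mice gave a measurement of the same chambers in the other 8 libraries, with an overloaded right ventricle. Sham and banded calls came from the same fit, with a shared estimate of each gene's spread. The banded calls are therefore not independent of the sham calls. Most genes called higher in the sham right ventricle had a lower mean log2 level in the right than in the left ventricle of banded mice. Of the 308, 240 had a negative right minus left difference in banded mice (77.9%, as against 62.5% of all tested genes), and 208 did after rescaling (67.5% against 47.5%). None was called higher and 28 were called lower in banded mice, 9.09% against 1.39% of all tested genes. That count was 3 without left banded library PS_9552 or PS_9564, 4 without right library PS_9564, 8 without right or left library PS_9553, 9 without right library PS_9561 and 25 or 26 without either of the other 2. It was 0 under TPM scaling and 0 with the library number as a block, and 3 with that block in the banded libraries alone; the labels do not say whether a number shared by a right and a left banded library marks 1 mouse. Etfb, Acaa2, Atp5e, Cox4i1, Rps14, Tnni3, Ucp3, Fbp2 and Pgam2 were among the 28. Etfb differed by 0.92 in sham and -1.07 in banded mice, Atp5e by 1.20 and -1.21, and Tnni3 by 0.84 and -1.34.

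Of the 161 genes lower in the sham right ventricle, 101 were also lower in the banded right ventricle (62.7% against 62.5% of all genes), and 78 after rescaling (48.4% against 47.5%). Nampt was the 1 gene called in the same direction in both (log2 difference -1.26 in sham and -1.40 in banded mice). That count was 0 under TPM scaling and without any 1 of the banded libraries other than left library PS_9561. Ankrd1 differed by 0.13 in banded mice and Nppa by 1.35 (adjusted p = 0.0333), against -1.55 and -1.08 in sham mice. Acta2 remained higher in the banded right ventricle, by 0.97, and passed on the rescaled scale alone (adjusted p = 0.0208, against 0.0534 as deposited). Aldh1a2 and Wnk1, of the set of 17, differed by 0.16 and -0.10. The banded comparison called 190 genes in all, 1.57% of those tested, of which 22 were higher and 168 lower in the right ventricle, as against 82 and 174 rescaled alone and 100 and 92 after quantile normalization.

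The difference between the sham and the banded difference was tested in the same fit and passed for 482 genes (3.98%), with the right minus left difference greater in sham mice for 418 (3.45%) and smaller for 64 (0.529%), among them 167 of the 308 and 36 of the 161; this test shares the sham libraries with the calls and so is not separate evidence of them. Kcnq1, Myl2 and Nppa were among the genes passing, with differences of 1.44, 2.15 and -2.43 on the log2 scale. For Csrp2, Wnk1 and Rragd it did not pass (adjusted p = 0.0608, 0.0567 and 0.0608).

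**Figure D5:**
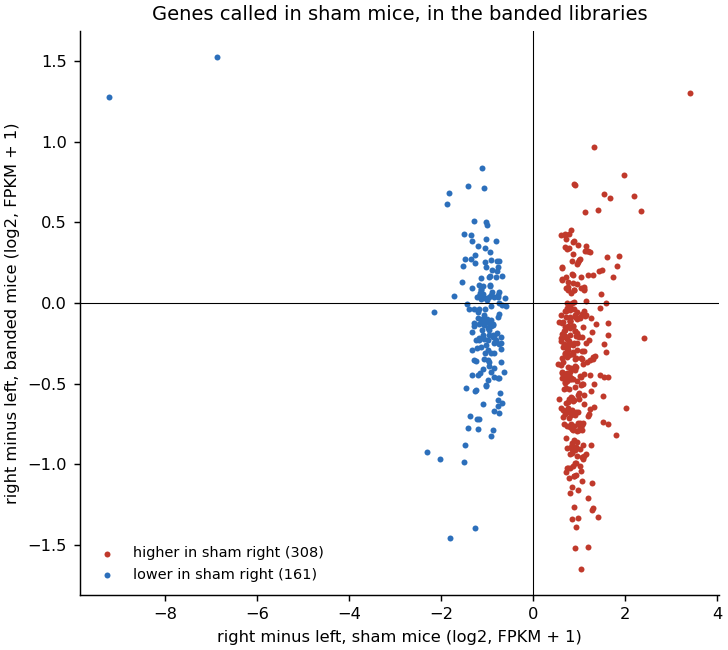
Right minus left difference (log2 of FPKM + 1) in banded mice against that in sham mice for the 308 genes called higher (red) and the 161 called lower (blue) in the sham right ventricle. Of the red points 240 lie below the horizontal zero line, and of the blue points 101 do.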

How the data were processed

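Poly(A) RNA of right and left ventricular free wall was sequenced in 16 libraries, 4 for each ventricle of sham and banded mice. Per the submitters' processing notes, the authors used FastQC 0.11.5, STAR 2.5.3a, Cufflinks 2.2.1, Cuffdiff and R 3.3.1 with build mm9; the deposited values are FPKM per gene and library. Parameters of these steps are not given in the sources used here.

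Log2(FPKM + 1) values of 12100 of 23946 genes, those at 1 FPKM or more in at least 4 libraries, were fitted with limma 3.58.1 in R 4.3.3 as 4 group means with a trended prior, and p-values were adjusted by Benjamini-Hochberg over all tested genes. A call needed adjusted p under 0.05 in the same direction as deposited and after median-ratio rescaling (8211 genes at 1 FPKM or more in every library). SE are those of the fit. Fold changes on the log2(FPKM + 1) scale understate the change of low genes.

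Named genes were the 12 largest called differences in each direction (mean of at least 5 FPKM in 1 chamber, no overlap, no predicted, small RNA or multi-symbol entries), 20 fixed chamber genes and up to 2 members of each list and direction with the smallest p; other genes named were chosen after their values were seen. Some genes that this rule names are not reported here. Members and lists were chosen with earlier results of these data known. Alternatives were other scalings, pseudocounts of 0.1 and 5, filters, priors, library weights, length and GC correction (11554 genes with GRCm38 annotation), the sham libraries alone, a replicate block, and leaving out each library. The NRF1 motif was widened by 1 free letter after counts of a stricter form had been seen. The fit was tested on simulated data, where it called more unchanged genes than its threshold allows.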

Additional observations from a re-analysis of the deposited data

Results flagged for a closer look

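For 46 of the genes named above the right minus left difference itself differed between sham and banded mice, in a test of that difference within the same fit; values are the sham minus the banded difference on the log2 scale. Among the 17 genes described above as called in the sham libraries alone and in every fit that left out 1, it was 1.57 for Aldh1a2, 1.24 for Bcat2, 1.59 for Cav3, 1.88 for D8Ertd738e, 1.99 for Etfb, 1.76 for Fis1, 2.25 for Hspb2, 1.58 for Ptprcap, 1.50 for Smim5, 2.63 for Gm16740 and -8.39 for Snora17. Of the other large differences, it was 2.67 for Ccl6, 2.62 for H19, 2.37 for Rps10, 2.01 for Vkorc1, -1.68 for Ankrd1, -1.94 for Gnb3, -2.13 for Ip6k3 and -1.72 for Mib1. Respiratory chain and fuel genes gave 1.53 for Ndufa11, 1.71 for Ndufb6, 2.41 for Atp5e, 1.76 for Atp5d, 2.31 for Atp5k, 1.96 for Cox4i1, 1.86 for Acaa2, 1.71 for Ucp3, 1.20 for Suclg1, 1.56 for Pgam2 and 2.69 for Fbp2. Contractile, natriuretic peptide, transcription factor and channel genes gave 2.15 for Myl2, 2.18 for Tnni3, 2.06 for Tcap, -2.43 for Nppa, -2.60 for Nppb, -1.04 for Tead1, 1.44 for Kcnq1 and 1.09 for Fxyd1. The remaining genes gave 2.40 for Rps14, 2.13 for Rplp2, -0.99 for Prkar1a, 1.82 for Igf2, 1.55 for Mgst1, -1.78 for Ccnd2, 1.97 for Stard10 and 1.75 for Cidea. Each of these tests shares the sham libraries with the sham calls.

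In 23 gene and chamber pairs 1 library stood apart from the other 3 by Dixon's 95% criterion, which chance meets in about 1 of 20 groups. In left library 1 these were Ankrd1 (1638), Ccnd2 (31.1), Ins1 (439), Ins2 (1620), Msln (2.28), Smim13 (7.02) and Upk3b (3.06), in FPKM. In left library 2 these were Bmp10 (0.297), Gm16740 (1.10) and Kcnh2 (25.6), in FPKM. In left library 3 it was Ptprcap (0), in FPKM. In left library 4 these were Acta1 (343), Esrra (62.6), Etfb (459), Itpr2 (4.26), Ndufa11 (85.5) and Pgam2 (522), in FPKM. In right library 1 it was Stard10 (26.2), in FPKM. In right library 2 these were Kcnip2 (73.3), Nampt (1.99) and Smim5 (38.8), in FPKM. In right library 4 these were Acta1 (497) and Msln (0.371), in FPKM. The number of pairs examined is not given here, so the 23 cannot be set against the rate of 1 of 20. That rate does not hold for Bmp10 and Gm16740, whose other 3 left values were 0.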

How the results depend on the processing

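No value of the 80 called genes given above reversed under any alternative; of their gene and setting pairs 1323 kept the call and 509 lost it. For 22 uncalled genes 444 pairs stayed uncalled, 32 were called and 28 reversed. Median-ratio rescaling alone gave 617 lower genes in the sham right ventricle, quantile normalization 513 and TPM scaling 2970, with 38 higher and 41 named genes kept under TPM. A pseudocount of 5 gave 96 lower genes, and library weights 126 higher. Fitting the sham libraries alone gave 22 higher, 18 lower and 19 named genes. Leaving out 1 library gave 59 to 368 higher, 21 to 180 lower and 29 to 69 named genes.

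In banded mice the higher and lower counts were 82 and 174 rescaled, 0 and 0 under TPM scaling, 100 and 92 after quantile normalization, 11 and 91 with a prior without trend, 104 and 655 with library weights, and 2 to 11 and 23 to 105 with 1 library left out; 350 were lower as deposited, 107 with no filter and 253 with a filter at 5 FPKM, and 37 and 45 were higher in the fit to banded libraries alone and after correction for length and GC content. The difference of the differences passed for 733 genes as deposited, 754 under TPM scaling and 274 to 595 with 1 library left out.

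With the replicate number as a block the counts were 69 higher, 39 lower and 46 named genes in sham mice, 3 and 9 in banded mice and 178 for the difference; in the sham libraries alone, an alternative chosen after seeing the data, 0, 2 and 1, and in the banded libraries alone 56 lower. Same-numbered sham libraries did not deviate together (correlations -0.0964 to 0.0283), nor did all same-numbered banded libraries (-0.0752 to 0.16). These correlations cannot decide whether a shared number marks 1 mouse, because part of the spread between libraries may be technical.

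Among uncalled genes the sign reversed as follows, on the log2 scale. TPM scaling gave -0.17 for Hand2, -0.46 for Tbx5, -0.35 for Irx4, -0.20 for Kcnd2, -0.12 for Gja5, -0.58 for Myh6 and -0.46 for Myh7. Quantile normalization gave -0.23 for Myl2, -0.57 for Myh6 and -0.14 for Myh7, rescaling -0.0122 for Tbx5 and -0.0534 for Myh6, and length and GC correction -0.0792 for Irx4, -0.14 for Myh6 and -0.0177 for Myh7. With 1 library left out, Tbx5 lay between -0.0935 and 0.16, Kcnd2 between -0.0759 and 0.50, Myh6 between -0.0467 and 0.11 and Myl7 between -0.80 and 0.73. The cause was not tested for any of these. In the fits to 8 libraries fewer samples estimate the spread. The blocked limma fit to the sham libraries alone gave 0 higher genes at an adjusted p under 0.05. In the limma fit without a block over all 16 libraries, 2394 genes of either direction had an unadjusted p under 0.05 on both scales. These counts differ in fit, adjustment and direction, so they cannot be compared directly.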
